A study of Homo sapiens with 8 samples.

Results

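Regions at the starts of long noncoding RNA (lncRNA) genes were examined for H3K27ac, an acetylated lysine of histone H3, in human pancreatic progenitors (PPs) with and without I-BET151. Overlapping peaks (1 bp or more) from the 4 H3K27ac libraries were joined, which gave 15752 regions. A region was kept when its strongest summit lay within 1 kb of a transcript start of a GENCODE lncRNA gene and more than 3 kb from every protein-coding transcription start. This left 573 of the 15752 regions (3.64%). Summits within 1 kb of a lncRNA start were found in 3238 regions, of which 2665 were set aside because a protein-coding start lay within 3 kb. For comparison there were 12425 regions at protein-coding starts and 2754 distal regions, which were near neither kind of start.

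The PPs of both groups were derived from MEL1 INS GFP/W, an established line of human embryonic stem cells that carries a GFP reporter at the insulin gene. Every culture was kept in EF6 medium, which supplied B27, EGF, bFGF and 616452, an inhibitor of TGFβ signaling. Group DMSO received the solvent and group I-BET151 received 1 μM of the drug for 7 days, with 2 H3K27ac libraries each. The 4 input libraries of the series were used only through the local background that enters each peak's fold enrichment. Both groups came from 1 cell line, and nothing in the labels says that the replicates were separate cultures, so the spread between libraries may be technical. Such cultures are mixed, and fewer acetylated cells cannot be told apart from less acetylation per cell.

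H3K27ac marks active promoters and enhancers, and a lncRNA start that carries it is usually taken as an active promoter or as an enhancer from which transcripts arise. lncRNA genes have often been annotated beside developmental transcription factors, where they share regulatory DNA with the neighboring gene, while others host microRNAs or small nucleolar RNAs in their introns. I-BET151 blocks the bromodomains of BET proteins, the readers that bind acetylated lysines and recruit the transcription machinery.

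The sequences below show the DNA under the summit for the best-ranked regions of each call pattern. Gained regions had a peak in each I-BET151 library but in no DMSO library, and lost regions had a peak in each DMSO library but in no I-BET151 library. Each sequence runs over 100 bp on either side of the strongest summit on the plus strand of hg38, and capitals mark CG dinucleotides, the pairs that are dense in CpG island promoters.

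The 3 best-ranked gained regions were at LINC00511 (chr17:72575347-72575547), ELDR (chr7:55255160-55255360) and HOTAIRM1 (chr7:27099046-27099246), and their printed windows held 5, 21 and 15 CG pairs.
LINC00511: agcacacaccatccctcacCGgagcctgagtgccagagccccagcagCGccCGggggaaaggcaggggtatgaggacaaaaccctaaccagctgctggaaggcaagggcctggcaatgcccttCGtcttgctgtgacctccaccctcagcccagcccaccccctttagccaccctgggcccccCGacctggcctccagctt
ELDR: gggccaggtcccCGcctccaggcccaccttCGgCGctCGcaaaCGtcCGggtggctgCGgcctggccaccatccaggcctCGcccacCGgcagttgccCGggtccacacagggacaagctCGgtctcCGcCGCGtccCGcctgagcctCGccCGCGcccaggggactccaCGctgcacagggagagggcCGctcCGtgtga
HOTAIRM1: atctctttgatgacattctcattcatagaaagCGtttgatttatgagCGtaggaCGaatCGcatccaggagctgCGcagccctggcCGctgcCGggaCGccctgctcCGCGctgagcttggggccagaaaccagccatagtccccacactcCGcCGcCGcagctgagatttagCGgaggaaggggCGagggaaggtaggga

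The 3 best-ranked lost regions were at LINC00963 (chr9:129489871-129490071), ENSG00000289352 (chr7:2622867-2623067) and ENSG00000282793 (chr15:101528647-101528847), with 5, 4 and 7 CG pairs.
LINC00963: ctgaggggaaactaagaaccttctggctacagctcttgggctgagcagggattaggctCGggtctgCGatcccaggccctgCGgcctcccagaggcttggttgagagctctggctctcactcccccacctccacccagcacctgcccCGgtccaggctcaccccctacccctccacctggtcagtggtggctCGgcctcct
ENSG00000289352: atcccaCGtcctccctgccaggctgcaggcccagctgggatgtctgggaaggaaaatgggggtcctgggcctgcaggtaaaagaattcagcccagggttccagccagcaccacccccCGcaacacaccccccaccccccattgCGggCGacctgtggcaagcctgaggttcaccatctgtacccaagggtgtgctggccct
ENSG00000282793: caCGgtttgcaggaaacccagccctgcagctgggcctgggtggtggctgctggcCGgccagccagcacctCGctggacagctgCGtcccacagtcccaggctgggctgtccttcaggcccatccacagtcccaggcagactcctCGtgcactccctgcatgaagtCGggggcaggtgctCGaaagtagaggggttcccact

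Of the regions called in all 4 libraries, the windows of MALAT1 (chr11:65498250-65498450), LINC02971 (chr1:234957798-234957998) and MIR194-2HG (chr11:64893026-64893226) held 11, 5 and 8 CG pairs.
MALAT1: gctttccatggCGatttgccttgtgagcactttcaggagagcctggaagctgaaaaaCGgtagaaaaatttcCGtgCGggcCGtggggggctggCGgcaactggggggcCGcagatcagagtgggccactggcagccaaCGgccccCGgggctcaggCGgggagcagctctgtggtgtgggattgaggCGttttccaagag
LINC02971: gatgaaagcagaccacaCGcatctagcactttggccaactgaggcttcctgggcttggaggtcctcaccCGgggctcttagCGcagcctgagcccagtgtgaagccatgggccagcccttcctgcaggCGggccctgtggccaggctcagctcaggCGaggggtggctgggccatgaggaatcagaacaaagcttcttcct
MIR194-2HG: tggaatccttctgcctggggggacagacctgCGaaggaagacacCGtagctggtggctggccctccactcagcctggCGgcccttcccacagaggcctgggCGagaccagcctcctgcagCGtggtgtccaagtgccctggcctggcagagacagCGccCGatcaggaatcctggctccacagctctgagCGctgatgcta

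The 573 regions had 500 different nearest lncRNA genes, of the 18866 lncRNA genes in the annotation. Of the regions, 133 shared their nearest gene with another region, with LINC00511 having the most, at 6. The median summit lay 240 bp from the lncRNA start, and the nearest protein-coding start was a median of 23.7 kb away, within 10 kb for 156 regions and over 50 kb away for 168. By position, 503 regions were intergenic, 53 lay inside a protein-coding gene on the opposite strand and 17 on the same strand. By name, 268 regions were at genes known only by an Ensembl identifier, 150 at intergenic (LINC) genes, 55 at antisense (-AS) genes, 28 at hosts of microRNAs or small nucleolar RNAs, 5 at divergent (-DT) genes and 67 at other named genes. Just inside the 1 kb limit were regions 985 bp from SRRM2-AS1 and 981 bp from TUSC8, and just outside were regions 1002 bp from LINC01819 and from HOXA-AS2. The 3 kb limit kept PP7080, 3019 bp from EXOC3, and ENSG00000260467, 3027 bp from DRC7, and left out ENSG00000288940, 2977 bp from PCDH7. Of these neighbors outside the limits, the HOXA-AS2 region was gained and the ENSG00000288940 region was lost.

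The labelled cell type was checked at protein-coding starts. The PP genes PDX1, NKX6-1, SOX9, FOXA2, ONECUT1, GATA4 and GATA6 each had a peak within 1 kb in each of the 4 libraries. No peak was called in any library at the 4 endocrine precursor genes or at the 3 liver genes. Of the 4 pluripotency genes LIN28B was called in all 4 libraries and POU5F1, NANOG and DPPA4 in none, and of the 4 mesenchyme genes PDGFRB was called in all 4 libraries and COL1A1, COL1A2 and TWIST1 in none. Of the intestine genes, CDX2 was called in all 4 libraries and VIL1 in every library except I-BET151 replicate 2. The lists held 12312 to 14248 peaks. ChIP depths, estimated from the lists and not counted from reads, were 7.76 to 9.84 M reads. By this estimate DMSO replicate 2 was the deepest library, and I-BET151 replicate 2 had the fewest peaks.

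To see how acetylation at lncRNA starts fared under I-BET151, calls and covered length were compared between the groups. Of the 573 regions, 446 and 467 were called in the DMSO libraries and 437 and 389 in the I-BET151 libraries. Both I-BET151 libraries were below both DMSO libraries, and the second was farther below than the first. The means were 456.5 ± 14.8 and 413 ± 33.9 regions (SD, n = 2 each), which differ by -43.5 (exact permutation test, two-sided, p = 0.333, the smallest p that 2 against 2 libraries can give). The difference was -18.5 regions without I-BET151 replicate 2 and -67.5 without I-BET151 replicate 1. Peaks covered 300.03 and 297.88 kb of these regions in DMSO, against 291.96 and 254.95 kb in I-BET151. The covered length differed by -25.5 kb, or by -8.53% (exact permutation test, p = 0.333), but by -6.97 kb without I-BET151 replicate 2 and by -44.6 kb without I-BET151 replicate 1. When every list was held to the same number of top-ranked peaks, the difference in calls turned to 15.5 more regions per library in I-BET151. The difference in covered length was then -2.09 kb, so both differences changed with list length.

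**Figure D1:**
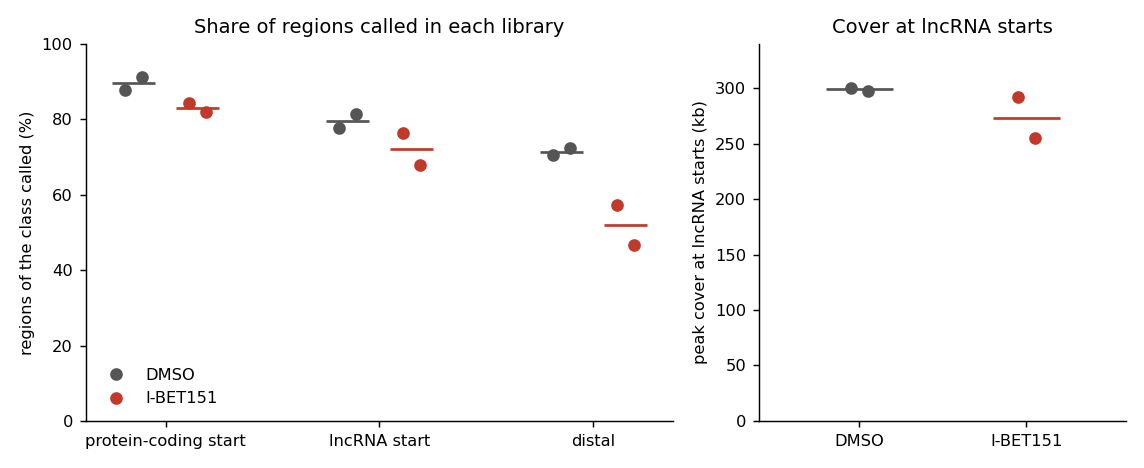
Left, the percentage of regions of each class called in each library (dots, 1 per library; lines, group means), and right, the kb covered by peaks at lncRNA starts. Regions at lncRNA starts lie between those at protein-coding starts and distal regions, and I-BET151 replicate 2 has the lowest cover at lncRNA starts, 254.95 kb.

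As a share of everything called, lncRNA starts were close in the 2 groups. They made up 3.03% and 3.02% of the covered bp in DMSO and 3.18% and 2.96% in I-BET151 (difference 0.044 percentage points, exact permutation p = 1), and the I-BET151 values lay on either side of the DMSO values. The covered length of regions at protein-coding starts differed by -8.45%, close to the -8.53% of lncRNA starts, whereas that of distal regions differed by -22.5%. Of the bp covered away from protein-coding starts, lncRNA starts took 21.9% and 22.4% in DMSO and 24.8% and 25.7% in I-BET151. This share was higher in both I-BET151 libraries, by 3.03 percentage points (exact permutation p = 0.333, a comparison chosen after the values were seen), and by 2.56 to 3.48 points when each library in turn was left out.

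Across the 4 libraries, 317 of the 573 regions (55.3%, Wilson 95% interval 51.2 to 59.3) were called every time, against 73.4% of regions at protein-coding starts and 32.1% of distal regions. At lncRNA starts 27 regions were gained (4.71%, 3.26 to 6.77), and over all 15752 regions 2.81% were gained. Lost regions numbered 52 (9.08%, 6.99 to 11.7), near the 8.60% lost over all regions. There were thus 1.93 lost regions for each gained region at lncRNA starts, 2.76 at protein-coding starts and 4.00 at distal regions. With the same number of top-ranked peaks in every list, 36 regions at lncRNA starts were gained and 32 lost. The balance of gains and losses thus changed with list length. Equal lists leave out the weakest peaks of the longer lists, and a loss of weak peaks was not tested apart from list length. Regions of the other classes were not counted with equal lists, so whether their balance moved in the same way is not known. The intervals cover counting error only, and regions of 1 gene are not independent. Leaving out single libraries moved the gained count to between 36 and 50 and the lost count to between 61 and 88, since a region then had to meet 3 calls and not 4. The other 177 regions were called in 1 library, in 3 libraries or in 1 of each group.

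**Figure D2:**
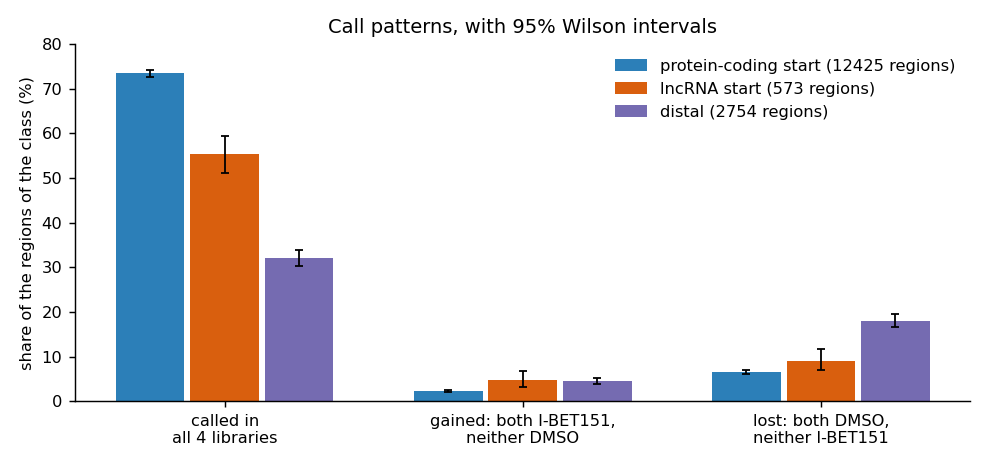
Bars give the percentage of regions at protein-coding starts, at lncRNA starts and in distal regions with each call pattern, and whiskers give 95% Wilson intervals. Regions at lncRNA starts were intermediate for calls in all 4 libraries (55.3%) and for loss (9.08%), and their gained share (4.71%) lay beside that of distal regions (4.50%).

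The gained regions sat at genes with varied roles and mostly near the bottom of the lists, with a median position of 86.7% of the way down, where 0% is the strongest peak. Their called fold enrichments over local input ran from 2.17 to 21.6. The strongest was an intergenic region 580 bp upstream of a start of LINC00511, an intergenic gene in the interval between SOX9 and SLC39A11, with 17.9- and 17.4-fold enrichment in I-BET151 replicates 1 and 2. At ELDR, a transcript beside the EGF receptor gene, the enrichment was 5.81- and 5.12-fold, and a second, weaker ELDR region was gained with it at 2.67- and 3.67-fold. At HOTAIRM1, a lncRNA known from myeloid cells, it was 5.80- and 6.91-fold. These values were close between the replicates. At HMGA2-AS1, antisense inside HMGA2, they were not, with 3.16-fold in replicate 1 and 21.6-fold in replicate 2. LIPE-AS1 had 5.86- and 2.62-fold enrichment and ENSG00000286728, whose nearest protein-coding gene was the homeobox gene SIX2, had 3.73- and 4.42-fold enrichment. ENSG00000227748, ENSG00000237529 and SOX9-AS1 were also among the gained regions named by rank, with 3.91- to 9.70-fold enrichment.

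Hosts of small RNAs were among the weaker gained regions. MIR137HG, the host of a neuronal microRNA, had 4.06- and 3.09-fold enrichment, and MIR31HG had 2.42- and 3.55-fold. The lowest-ranked was CASC15, near SOX4, with 2.25- and 2.17-fold. In 5 of the 27 gained regions both calls had a −log10 q of at least 10, compared with 22 of the 52 lost regions.

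The lost regions were stronger within the DMSO lists, with a median position of 81.0%, and 30 of the 52 were at genes with no symbol. LINC00963 illustrated a change along 1 gene. Its region 805 bp upstream of a start had 16.7- and 12.4-fold enrichment in DMSO and no peak with I-BET151, and its region 150 bp upstream of another start, with 6.02- and 7.30-fold enrichment, was also lost. One further region of the gene was called in all 4 libraries, at 6.83- and 6.38-fold in DMSO and 4.47- and 5.37-fold in I-BET151, so that both I-BET151 values were lower. At its widest region of 2294 bp the groups overlapped, with 7.47- and 8.07-fold against 6.44- and 8.93-fold.

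ENSG00000289352, near TTYH3, lost the longest stretch of the 10 regions named by rank, 2133 and 2071 bp of peak in the DMSO libraries, with 11.8- and 5.92-fold enrichment. ENSG00000282793, near PCSK6, had 10.5- and 7.37-fold enrichment in DMSO, and ENSG00000282602, near the heme oxygenase gene HMOX1, had 10.1- and 9.89-fold. LINC02766 had 9.13- and 7.15-fold enrichment over 1149 and 608 bp. The other 5 named by rank, ENSG00000260498, ENSG00000273230, ENSG00000235271, ENSG00000267288 and ENSG00000289560, had 4.56- to 12.2-fold enrichment. Outside that rule and chosen after their values were seen, LINC01220, 15.1 kb from the immediate-early gene FOS, had 8.08- and 3.55-fold enrichment, and 2 of the 3 regions of PSD2-AS1, both of SCIRT and both of ENSG00000273230 were lost. MIR200CHG, the host of epithelial microRNAs, was the lowest-ranked lost region, at 2.50- and 2.45-fold. No lncRNA gene had both a gained and a lost region, that is 0 of the 25 genes with gained and the 48 genes with lost regions. Only 133 of the 573 regions shared their nearest gene with another region, so most genes could not have had both.

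Gained and lost regions differed in their DNA sequence, which was not used to define them. Whether base composition affected which peaks were called in each library was not tested. In the 501 bp around the summit, the observed-to-expected CpG ratio exceeded 0.6, a level typical of CpG islands, in 62.5% of lncRNA start regions, against 85.0% at protein-coding starts and 18.3% of distal regions. Among gained regions 23 of 27 passed that level (85.2%, Wilson 95% interval 67.5 to 94.1), and among lost regions 18 of 52 did (34.6%, 23.2 to 48.2). The median ratios were 0.80 in gained, 0.38 in lost and 0.74 in constantly called regions. The ELDR and HOTAIRM1 windows printed above belong to the CpG-rich kind, with ratios of 0.74 and 0.86, while LINC00511, at 0.19, was the gained region with the lowest ratio. All 3 printed lost windows were CpG-poor, at 0.20 to 0.26. The same ordering was seen at protein-coding starts (81.5% of gained and 56.9% of lost regions) and in distal regions (26.6% and 6.85%), so it was not particular to lncRNA starts. The groups of regions also differed in peak strength and in width, and the part of these in the CpG difference was not tested.

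**Figure D3:**
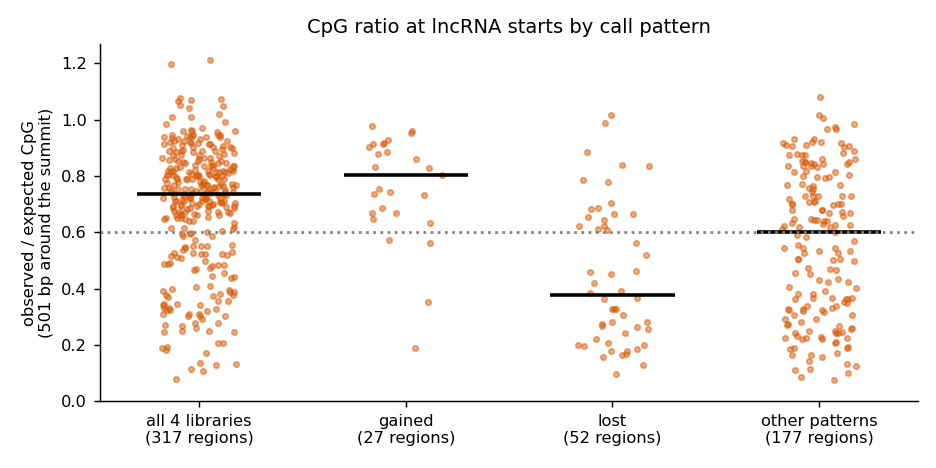
Each dot is a lncRNA start region, plotted by the observed-to-expected CpG ratio of the 501 bp around its strongest summit, black lines are medians and the dotted line is 0.6. Gained regions lie mostly above the line (23 of 27) and lost regions mostly below it (18 of 52 above).

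Short motifs were searched on both strands of the same windows. TGANTCA, the consensus of the stress-responsive factor AP-1, was found in 7.16% of lncRNA start regions and in 6.67% of all regions of that length. It occurred in 6 of the 52 lost regions (11.5%, 5.40 to 23.0) and in 0 of the 27 gained regions (0 to 12.5), intervals that overlap. At protein-coding starts it was in 10.5% of lost and 3.77% of gained regions, and in distal regions in 15.1% and 6.45%. The order was thus not particular to lncRNA starts. The lost lncRNA start regions with an AP-1 match were at LINC02766, SCIRT, LINC01605, LINC01270, ENSG00000254632 and ENSG00000287507. The GATA motif AGATAA was in 9.08% of lncRNA start regions (6.09% of all regions), the FOXA motif TGTTTAC in 3.49% (2.65%), the SOX motif ACAATGG in 4.01% (3.34%), the ONECUT motif ATCGAT in 1.40% (1.14%) and TATAAA in 4.01% (3.77%). Of lost and gained lncRNA start regions, GATA was in 13.5% and 7.41%, FOXA in 9.62% and 3.70% and SOX in 3.85% and 0%. ONECUT was in 3.85% and 0% and TATAAA in 1.92% and 7.41%, and every pair of Wilson intervals overlapped. Each match is a stretch of letters and not a measured binding site.

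Peak width and read height at lncRNA starts, but not fold enrichment, were between those of the other classes in every library. By the median, peaks spanned 517 and 494 bp in DMSO, against 531.5 and 526 bp in I-BET151. They were 94.4 ± 25.8 bp narrower than at protein-coding starts and 121 ± 5.5 bp wider than in distal regions (SD over 4 libraries, exact permutation by switching signs, p = 0.125 for each, the smallest p for 4 libraries). Read height at the summit gave the same order, with medians of 18.3, 16.6, 18.2 and 19.8 ChIP reads per M sequenced (RPM). These were 7.51 ± 1.06 below protein-coding starts and 5.97 ± 0.525 above distal regions. The depths behind RPM were estimated from the peak lists. The median fold enrichment did not follow this order. It differed from that of distal regions by -0.335 ± 0.18, lower in 4 of 4 libraries (exact sign-switching permutation, p = 0.125), and below that of protein-coding starts in 2 of 4. Summits lay downstream of the lncRNA start in 61.0%, 57.8%, 60.2% and 59.1% of called regions. At protein-coding starts the share was 68.6 to 70.0%, from which lncRNA starts differed by -9.75 ± 1.38 percentage points (exact sign-switching permutation, p = 0.125), and the share at lncRNA starts differed by 0.253 points between groups (exact permutation p = 1).

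In the 317 regions called in all 4 libraries, fold enrichments could be compared directly. They ran from 1.89- to 60.6-fold. At the summit, 80 regions (25.2%) were higher in both I-BET151 than in both DMSO libraries and 52 (16.4%) were lower in both, and over all 10317 such regions the shares were 25.4% and 16.4%. The median log2 ratio of I-BET151 to DMSO was 0.05, against 0.08 over all regions. Fold values depend on the local input. Counted as RPM, 124 regions were higher and 78 lower of the 305 with resolved reads (40.7% and 25.6%), while over all regions called in all 4 libraries the shares were 29.9% and 31.1%. By RPM the balance at lncRNA starts thus leaned further toward higher values than over all regions, which it did not by fold, and the same lean was seen in distal regions (42.6% and 30.5%). Of the regions without overlap by fold, 60 of the 80 higher and 31 of the 52 lower regions kept their direction while 3 and 6 turned. By covered length, 73 regions (23.0%) were longer in both I-BET151 libraries and 89 (28.1%) shorter, while 16% and 33.3% of all regions called in all 4 libraries were.

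**Figure D4:**
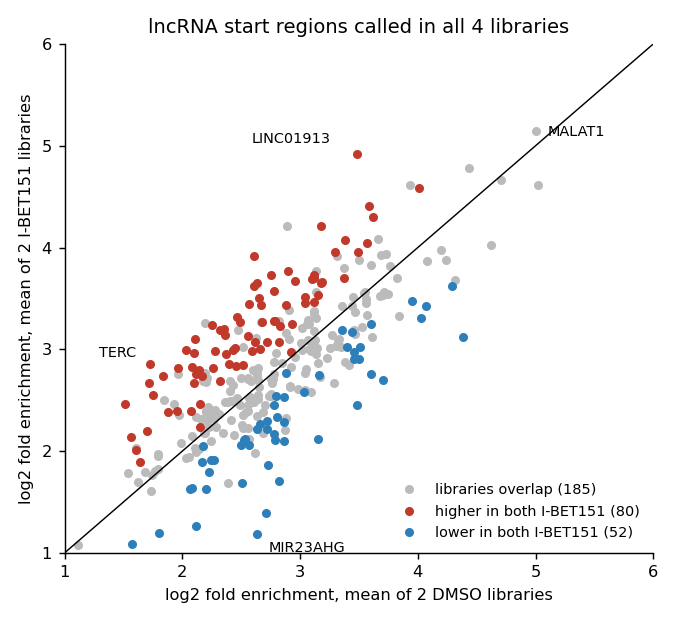
Each dot is 1 of the 317 lncRNA start regions called in all 4 libraries, plotted by the mean log2 fold enrichment of the 2 DMSO (x axis) and the 2 I-BET151 libraries (y axis); the line marks equality. Red dots (80) were higher and blue dots (52) lower in both I-BET151 libraries, with LINC01913 and MIR23AHG at the extremes and MALAT1 near the line.

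Of the 10 regions of highest mean −log10 p, 2 were higher in both I-BET151 libraries by fold and 8 by RPM, and 0 were lower by either. For all regions called in all 4 libraries the shares were 25.4% higher and 16.4% lower by fold, and 29.9% and 31.1% by RPM. The count of higher regions by fold was thus near the share over all regions. MALAT1, a nuclear RNA of nearly all cells, had 25.3- and 40.8-fold enrichment in DMSO and 36.6- and 34.4-fold in I-BET151, and the groups overlapped by fold. In RPM it had 42.0 and 34.7 in DMSO against 51.4 and 47.9, and these did not overlap. LINC02971 had 23.5- and 19.9-fold in DMSO against 20.4- and 36.9-fold, and MIR194-2HG had 11.6- and 24.7-fold against 13.8- and 15.5-fold. Both overlapped as well by fold, although LINC02971 was higher in both I-BET151 libraries by RPM, with 38.3 and 34.0 against 46.7 and 41.2. MIR130AHG and MIR1915HG, hosts of microRNAs, were the 2 that were higher by fold, and they were also higher by RPM. MIR130AHG had 9.26- and 11.7-fold enrichment in DMSO and 14.7- and 19.4-fold in I-BET151, and MIR1915HG had 9.17- and 8.21-fold against 15.0- and 11.7-fold. ZSCAN16-AS1 showed how far replicates could differ, with 51.6- and 13.1-fold in DMSO and 60.6- and 10.6-fold in I-BET151. The remaining 4 of the 10, RENO1, ENSG00000253190, ENSG00000289123 and ENSG00000289883, overlapped by fold. By RPM, ZSCAN16-AS1 and these 4 other than ENSG00000289123 were higher in both I-BET151 libraries.

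Covered length picked out other genes. The 5 largest increases among regions without overlap were at TERLR1, LINC02875, NR2F2-AS1, GLIS2-AS1 and COL18A1-AS1. At TERLR1 peaks covered 399 and 516 bp in DMSO, against 1689 and 1393 bp in I-BET151. NR2F2-AS1, beside the nuclear receptor gene NR2F2, had 1030 and 765 bp in DMSO, against 1492 and 1261 bp, with 4.22- and 5.57-fold against 7.43- and 8.44-fold enrichment. GLIS2-AS1 lies antisense inside GLIS2, and its region had 2.79- and 3.87-fold enrichment in DMSO and 6.38- and 6.30-fold in I-BET151. The 5 largest decreases were at ZBTB7C-AS1, ENSG00000272449, LINC02352, LINC02298 and ENSG00000269151. ZBTB7C-AS1 had 1317 and 1232 bp in DMSO, against 417 and 321 bp, and LINC02298 had 1245 and 1264 bp, against 743 and 496 bp. A second region of LINC02298 was among the lost regions.

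The members of 3 lists of lncRNAs were then followed, chosen from general knowledge with earlier results of these data known. Of 65 hosts of small RNAs, 23 had a region here (24 regions). All 4 libraries called 19 of these, 2 were gained and 1 was lost. Their fold was higher in both I-BET151 libraries at 4 regions and lower at 4, with a median log2 ratio of -0.06 beside 0.08 over all regions. By RPM 3 were higher and 8 lower. Among all regions called in all 4 libraries, 25.4% were higher and 16.4% lower by fold, and 29.9% and 31.1% by RPM. The hosts lower by fold were SNHG12, SNHG8, SNHG6 and MIR23AHG. MIR23AHG, the host of a microRNA cluster expressed in many tissues, had the largest difference of all 317 regions, with 6.06- and 6.38-fold enrichment in DMSO against 2.63- and 1.96-fold. SNHG8 had 10.6- and 10.4-fold against 7.44- and 8.94-fold. In the opposite direction SNHG11 had 3.48- and 5.24-fold in DMSO and 8.64- and 7.07-fold in I-BET151, and SNHG17 had 4.68- and 5.63-fold against 8.30- and 9.38-fold. Neither host overlapped between groups by fold, although SNHG17, and SNHG6 among the lower hosts, did by RPM. SNHG26, which was lower in both by RPM, and MIRLET7A1HG, which overlapped by RPM, were the other 2 higher hosts.

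Of 52 well-known lncRNAs, 14 had regions here (27 regions). All 4 libraries called 17 of these, 3 were gained and 2 were lost. TERC, the RNA template of telomerase, had 4.13- and 2.64-fold enrichment in DMSO and 4.99- and 10.5-fold in I-BET151. At PVT1, beside MYC, 1 region had 3.12- and 2.60-fold against 5.14- and 5.94-fold. DLEU2 had 1 region with 7.56- and 6.19-fold against 10.4- and 13.7-fold. These regions and 1 region of LINC00511 were higher in both I-BET151 libraries. The other PVT1 region went the other way, with 3.46- and 3.66-fold in DMSO. It was not called in I-BET151 replicate 1 and had 2.84-fold in I-BET151 replicate 2. DANCR, with 11.4- and 10.6-fold in DMSO and 7.78- and 7.90-fold in I-BET151, and the LINC00963 region above were lower in both, although DANCR overlapped by RPM. The paraspeckle scaffold NEAT1 (9.54- and 7.09-fold against 7.97- and 5.83-fold), the imprinted transcript MEG3 and the imprinted antisense transcript KCNQ1OT1 overlapped between groups by fold. By RPM both regions of MEG3 were higher in both I-BET151 libraries, with 30.9 and 25.9 in DMSO against 48.2 and 42.4 at the stronger. One of the 2 KCNQ1OT1 regions was lower by RPM, and both were shorter in covered length. The median log2 ratio of the 17 regions was -0.03, and by fold 4 were higher and 2 lower, by RPM 8 and 3. Over all regions called in all 4 libraries the shares were 25.4% and 16.4% by fold, and 29.9% and 31.1% by RPM.

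Of 25 pancreas or endoderm lncRNAs, 4 had regions here (9 regions). The nearest protein-coding gene was a transcription factor gene of the PP state for LINC00261, GATA6-AS1 and SOX9-AS1, and CPN2 for the 3 regions of LINC00887. Of the 9 regions, 5 were called in all 4 libraries, 1 was gained and 0 were lost, and 3 of the 5 were higher in both I-BET151 libraries and 0 lower, with a median log2 ratio of 0.60. By RPM all 5 were higher. Of all regions called in all 4 libraries, 25.4% were higher and 16.4% lower by fold, and 29.9% and 31.1% by RPM. LINC00261, beside FOXA2 and expressed in definitive endoderm, had a region 895 bp upstream of a start with 5.64- and 6.59-fold enrichment in DMSO and 11.2- and 13.5-fold in I-BET151. Its region 87 bp inside the start had 9.49- and 11.3-fold against 10.5- and 18.4-fold, which overlapped by fold, although its cover was longer in both I-BET151 libraries. GATA6-AS1 had 7.48- and 9.82-fold in DMSO and 13.9- and 12.1-fold in I-BET151, while its covered length, 1667 and 1648 bp against 1642 and 1593 bp, was slightly shorter in both. SOX9-AS1 had 3 regions 3.03, 4.08 and 5.03 kb from SOX9. The one nearest to SOX9 was called in all 4 libraries, at 5.05- and 4.48-fold in DMSO and 10.4- and 8.59-fold in I-BET151. The middle one was missing only from DMSO replicate 2, and the farthest was gained, with 6.94- and 3.91-fold. LINC00887 was called in all 4 libraries at 1 region, with 2.87- to 3.47-fold enrichment and overlapping groups by fold.

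The study names 12 PP and cell-growth genes as raised by I-BET151 and 3 genes as lowered. Within 100 kb of the starts of the 12 genes lay 15 of the lncRNA start regions, at PDX1 (1), SOX9 (3), ONECUT1 (3), FOXA2 (2), GATA6 (2), HEY1 (1) and HES1 (3), and 0 lay near NEUROG3, NEUROD1 or CDKN1A. Of the 15, 9 were called in all 4 libraries, 4 were gained and 0 were lost, and 6 of the 9 had a higher fold in both I-BET151 libraries while 0 had a lower one. Over all regions 2.81% were gained and 8.60% lost, and of those called in all 4 libraries 25.4% had a higher and 16.4% a lower fold. By RPM 7 of the 9 were higher and 0 lower, against 29.9% and 31.1% of all regions called in all 4 libraries. Peaks covered 9.50 and 7.99 kb of these regions in DMSO, against 11.9 and 11.6 kb in I-BET151, 3.01 kb more (exact permutation p = 0.333), and 1.81 to 3.76 kb more under every alternative tried. The gene list was drawn from the same cells and treatment, and so is not independent evidence of direction.

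**Figure D5:**
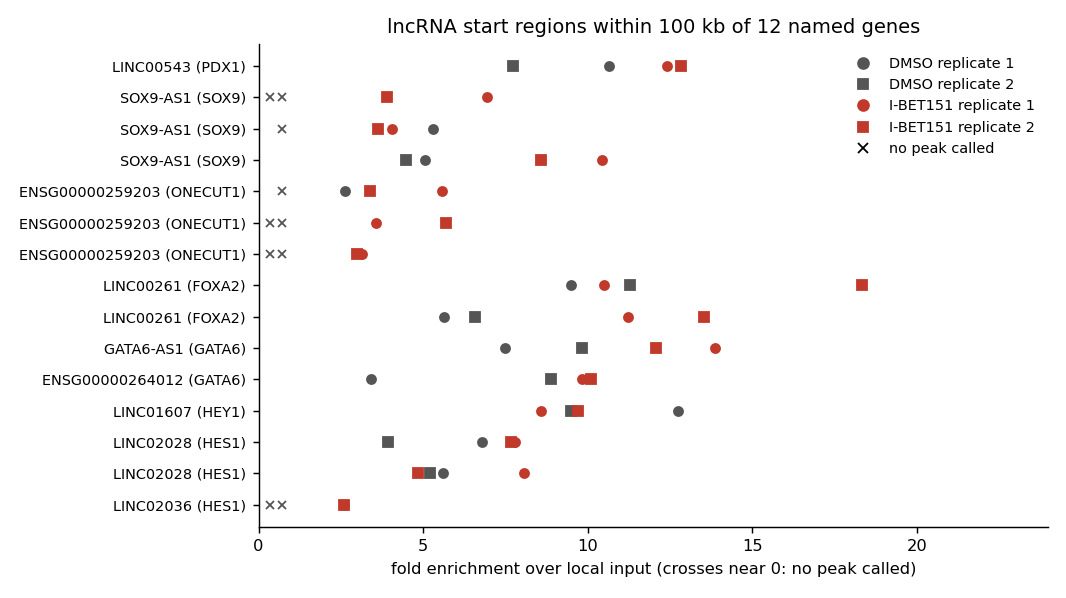
Fold enrichment over local input in each library at the 15 lncRNA start regions within 100 kb of the named genes, which are given in parentheses; crosses mark libraries without a called peak and are not values of 0. DMSO symbols (gray) lie left of I-BET151 symbols (red) in 6 of the 9 regions called in all 4 libraries, and all 4 gained regions lack DMSO peaks.

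ONECUT1, a PP transcription factor gene also known as HNF6, had the largest difference in number of calls. ENSG00000259203, a lncRNA that starts 14.7 kb from ONECUT1, had 3 regions, and DMSO peaks covered 331 and 0 bp of them while I-BET151 peaks covered 1483 and 1755 bp. The 2 gained regions had 3.59- and 5.71-fold and 3.16- and 3.01-fold enrichment. At the remaining one, replicate 1 of DMSO was called at 2.61-fold and the I-BET151 libraries at 5.57- and 3.40-fold. LINC00543, whose nearest protein-coding gene is CDX2 and which also lies within 100 kb of PDX1, had 10.7- and 7.74-fold against 12.4- and 12.8-fold, and overlapped by RPM. ENSG00000264012, antisense inside GATA6, had 3.43- and 8.88-fold in DMSO and 9.82- and 10.1-fold in I-BET151, so that the DMSO libraries differed from each other more than the nearer of them did from I-BET151. Around the Notch target HES1, 1 region of LINC02028 was higher (6.78- and 3.94-fold against 7.78- and 7.66-fold), its other region overlapped and LINC02036 was gained at 2.59-fold in both libraries. LINC02026, 132.4 kb from HES1 and so outside the window, went the other way by fold, with 3.97- and 4.72-fold against 2.38- and 2.43-fold, but was higher in both I-BET151 libraries by RPM and covered length. LINC01607, beside the Notch target HEY1, overlapped by fold and was higher in both I-BET151 libraries by RPM and covered length.

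By class of lncRNA, calls in all 4 libraries were most frequent at small RNA hosts by name, 22 of 28 regions (78.6%), followed by LINC genes and antisense genes, at 56.0% and 56.4%, and least frequent at divergent genes, 1 of 5. Regions inside a protein-coding gene on the opposite strand were called in all 4 libraries in 38 of 53 cases (71.7%), with 5 gained and 2 lost. Intergenic regions were in 271 of 503 (53.9%), with 22 gained (4.37%) and 49 lost (9.74%). These intergenic shares lay near those of all 573 regions, 55.3% called in all 4 libraries, 4.71% gained and 9.08% lost. Over all 15752 regions the shares were 65.5%, 2.81% and 8.60%. Covered length in the opposite-strand class was 31.8 and 32.4 kb in DMSO, against 36.0 and 31.5 kb in I-BET151, which overlapped. In intergenic regions it was 259.5 and 257.1 kb against 247.4 and 216.6 kb, which did not.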

How the data were processed

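H3K27ac ChIP-seq of MEL1-derived PPs was performed by the authors with an anti-H3K27ac antibody, and paired-end reads were aligned to hg38 with Bowtie2 2.2.5, duplicates and mitochondrial reads were removed, and peaks were called per library with MACS2 2.1.2 at default settings (versions per the submitters' processing notes). Replicates were not pooled. Each deposited list gives, per peak, its position and summit, a score (not used), the fold enrichment as a ratio to the local background, and the p-value and q-value as −log10. Values are the authors' own and were not normalized between libraries. Duplicate removal caps summit height and a fixed threshold leaves out weak peaks, so an uncalled region is not one without acetylation.

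Transcript starts came from GENCODE release 44 on hg38. The build was checked by position: 82.2, 82.1, 84.1 and 85.9% of peaks lay within 3 kb of a protein-coding start, against 17.3 to 18.0% after a shift of 1 Mb. Whole ChIP reads at summits were worked out from fold and p-value, resolving 98.5 to 99.0% of peaks. Library depths were estimated from the same recovered values and an assumed genome size, and not counted from reads. They came to 7.96 and 9.84 M (DMSO) and 7.76 and 8.04 M (I-BET151). On 3379 simulated peaks the recovery of reads resolved 98.2%, of which 100% were right. The depth estimates, on which RPM rests, were not part of that simulation. Single values were compared by two-sided exact permutation over libraries (6 assignments), and classes within libraries by switching signs. Python 3.11.15, NumPy 2.4.6, pandas 2.3.3, SciPy 1.17.1 and Matplotlib 3.10.9 were used. Regions were named by rank (10 gained, 10 lost, 10 strongest, and the 5 largest increases and 5 largest decreases in covered length) and by 3 gene lists. The members, lists and rules were chosen with earlier results of these data known. Peaks of the 4 input libraries were not analysed here. A few genes that these rules name are not reported here.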

Additional observations from a re-analysis of the deposited data

Results flagged for a closer look

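The input libraries were not compared between groups on their own, but they enter every fold comparison through the local input level. That level showed a signal at lncRNA starts. Its median at the called peaks was 32.6 and 30.2 times the genome-wide input level in DMSO replicates 1 and 2 and 31.5 and 32.5 times in I-BET151 replicates 1 and 2. At protein-coding starts it was 41.5 to 48.0 times, and in distal regions 16.3 to 24.4 times, the genome-wide level. The part of this local input in the fold enrichments was not tested beyond the counts in RPM (ChIP reads per M sequenced) given above.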

How the results depend on the processing

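All 11 results were recomputed under the alternatives, giving 146 values, of which 126 kept their direction and, for counts and the median ratio, stayed near the reported value. Differences were judged by sign alone, whatever their size. For the median ratio, near meant within 0.0886, which is wider than the ratio of 0.05 itself. The replicate block alters only p-values, so its values could not move. The 126 is therefore a lenient count. With the same number of top-ranked peaks in each list (12312), the difference in regions called per library turned to 15.5, that in covered length was -2.09 kb, and 36 regions were gained and 32 lost. With a −log10 q of at least 5, the shares of covered bp and of called regions turned to -0.00453 and -0.0694 percentage points from 0.044 and 0.021. With lncRNA starts within 500 bp, 34 regions were lost. In RPM, 124 regions were higher and 78 lower. Leaving out each library gave differences of -67.5 to -18.5 regions and -44.6 to -6.97 kb, -0.0693 to 0.153 points for the share of covered bp, -0.0862 to 0.132 points for that of called regions, 36 to 50 gained and 61 to 88 lost regions, a median log2 ratio of 0.011 to 0.145, 118 to 145 higher and 88 to 112 lower regions. The cause was not tested, except that fewer libraries have to agree when 1 is left out. With the replicate block the differences were the same, -43.5 regions and -25.5 kb (exact p = 0.5, the smallest for 2 pairs). The 2 numbers gave correlations of replicate differences of 0.148 (fold) and 0.014 (covered bp) between groups, so they were not taken as pairs. Alternatives for the share away from protein-coding starts, for regions near named genes and for counts of higher and lower regions other than RPM were chosen after seeing the data. With 2 libraries a group no comparison could pass 0.05, and weak acetylation under the calling threshold was not detectable at these depths.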
